A study of Mus musculus with 7 samples.

Results

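The interferon response genes described here are 44 mouse genes, listed by symbol as genes that interferon is known to induce. All 44 were found among the 55487 gene identifiers of the count files through the GENCODE M21 annotation, and all 44 were among the 18779 genes with enough reads to be tested. Ovaries of C57BL6/J mice were collected at diestrus on postnatal day 60, with 1 RNA-seq library per mouse. The 3 CNTR mice were daughters of dams injected with PBS between E16.5 and E18.5 of gestation. The 4 PAMH F3 mice descended over 3 generations from dams injected on the same days with human anti-Müllerian hormone (AMH) at 0.12 mg/kg per day, through matings between unrelated PAMH animals and with no further AMH. The CNTR mice were therefore F1 animals, so that the treatment of the lineage and the generation cannot be told apart. The labels give the injections as subcutaneous and the methods of the study give them as intraperitoneal.

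Interferons are cytokines that signal through cell-surface receptors and JAK kinases to STAT transcription factors. Type I interferon assembles a complex that holds STAT2 and IRF9 and binds the interferon-stimulated response element (ISRE) of its target genes, whereas type II interferon acts mainly through the gamma-activated site (GAS). The induced genes encode antiviral effectors, sensors of viral nucleic acid, GTPases that attack intracellular microbes and parts of the machinery that loads antigen onto MHC class I. In a tissue without infection they keep a low tonic expression, part of which comes from resident immune cells.

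The letters that define this response were looked for in the RefSeq promoter windows of GRCm38.p6, which run from 250 bases before to 50 bases after each annotated start. Windows were held for 35 of the 44 members. The ISRE core, taken as GAAA, any 2 bases and GAAA again on either strand, was present for 20 of these 35 members (57.1%), compared with 3.99% of the 27025 genes with a window. The GAS core TTCNNNGAA, also on both strands, was present for 9 of 35 (25.7%), compared with 9.55% of all genes. Both motifs were found for 5 members. The 250 bases before the start of 5 members are shown 5′ to 3′ in the sense of the gene, because 4 of them varied together from library to library and the fifth, Bst2, did not although its window holds the same letters. Capitals mark the ISRE core on either strand, and overlapping matches run together. The positions are chr4:156200819-156201068 on the minus strand, chr19:34640639-34640888 on the plus strand, chr19:34583279-34583528 on the plus strand, chr11:48871421-48871670 on the minus strand and chr8:71537473-71537722 on the minus strand.
Isg15: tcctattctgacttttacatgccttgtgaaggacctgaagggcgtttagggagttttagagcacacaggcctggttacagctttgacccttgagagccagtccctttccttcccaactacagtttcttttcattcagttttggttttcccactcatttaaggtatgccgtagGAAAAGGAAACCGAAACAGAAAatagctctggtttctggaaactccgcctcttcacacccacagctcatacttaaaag
Ifit1: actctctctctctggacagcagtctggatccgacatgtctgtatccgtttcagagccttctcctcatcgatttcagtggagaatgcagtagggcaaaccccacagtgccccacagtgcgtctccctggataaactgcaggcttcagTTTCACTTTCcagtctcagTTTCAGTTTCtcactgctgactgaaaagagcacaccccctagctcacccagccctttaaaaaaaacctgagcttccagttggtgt
Ifit3: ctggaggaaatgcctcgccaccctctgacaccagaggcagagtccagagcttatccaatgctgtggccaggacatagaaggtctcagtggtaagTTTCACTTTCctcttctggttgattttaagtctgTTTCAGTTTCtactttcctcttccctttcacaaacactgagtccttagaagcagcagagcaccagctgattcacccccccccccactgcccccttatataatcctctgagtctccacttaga
Irgm1: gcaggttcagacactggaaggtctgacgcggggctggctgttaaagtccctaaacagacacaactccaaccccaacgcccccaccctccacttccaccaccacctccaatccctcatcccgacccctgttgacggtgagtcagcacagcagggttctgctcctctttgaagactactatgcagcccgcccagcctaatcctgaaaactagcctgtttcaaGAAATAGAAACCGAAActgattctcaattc
Bst2: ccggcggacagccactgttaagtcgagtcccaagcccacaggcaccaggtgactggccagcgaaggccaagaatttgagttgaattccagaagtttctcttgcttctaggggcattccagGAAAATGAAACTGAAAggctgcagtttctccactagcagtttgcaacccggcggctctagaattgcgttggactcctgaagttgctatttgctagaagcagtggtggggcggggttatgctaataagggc
In Isg15, 3 overlapping matches begin between 78 and 66 bases before the start. The 2 matches of Ifit1 begin 104 and 85 bases before it, and those of Irgm1 begin 30 and 24 bases before it. A match is a description of letters and not a measured binding site.

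The libraries held 32158174 to 35485021 gene counts each, and the members had between 43 and 9417 counts in a library. Values are CPM, that is counts scaled to a common library size, after TMM normalization, and levels are compared between genes as CPM per kilobase of merged exon. Granulosa cell, oocyte and theca or luteal markers were detected, except that the theca gene Insl3 had only 14 counts over all libraries. Summed levels of 9 of 10 marker lists overlapped between the groups, and the dendritic cell list, which itself holds Bst2, did not. Overlap of sums leaves room for shifts of single markers. In the edgeR fit described below, the log2 fold change was below 0 for 5 of 5 endothelial, 4 of 4 adipocyte and 5 of 6 dendritic cell markers. The other lists were mixed, and no marker passed the adjusted threshold. Markers of tissue beside the ovary varied widely. Adipocyte sums were 128.5 to 432.8 CPM in CNTR and 62.1 to 297 CPM in PAMH F3. Oviduct epithelium sums were 2980 to 5272 CPM in CNTR and 2547 to 6393 CPM in PAMH F3. Both were lowest in PAMH F3 replicate 4, whereas CNTR replicate 2 was at 176.7 and 4036 CPM. The part of these tissues in the members' values was not tested. CNTR replicate 2 had the largest trend with GC content over all genes. Its log2 level rose by 0.344 for each 10% of GC, compared with values from -0.214 to 0.129 in the other libraries. Each library was set against the mean of the others of its group, so the values within a group depend on each other.

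The members ranged widely in level (see the plot of levels by role). The highest per kilobase was Ifitm3, a membrane protein that blocks virus entry, with 324 CPM per kb averaged over 7 libraries. Next came Bst2 with 152, Ifitm2 with 144, Ifi27 with 136, Ifi27l2a with 114 and Ifitm1 with 66.5 CPM per kb. The lowest was Mx1, a dynamin-like GTPase that is defective in C57BL/6 and many other laboratory strains, with 0.535 CPM per kb. The median over members was 5.46 CPM per kb, beside 4.67 over all genes tested. Neighbours in this order were often not separated by their spread. Bst2 ranged from 104 to 278 CPM per kb over libraries, Ifitm2 from 131 to 164 and Ifi27 from 119 to 156.

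**Figure D1:**
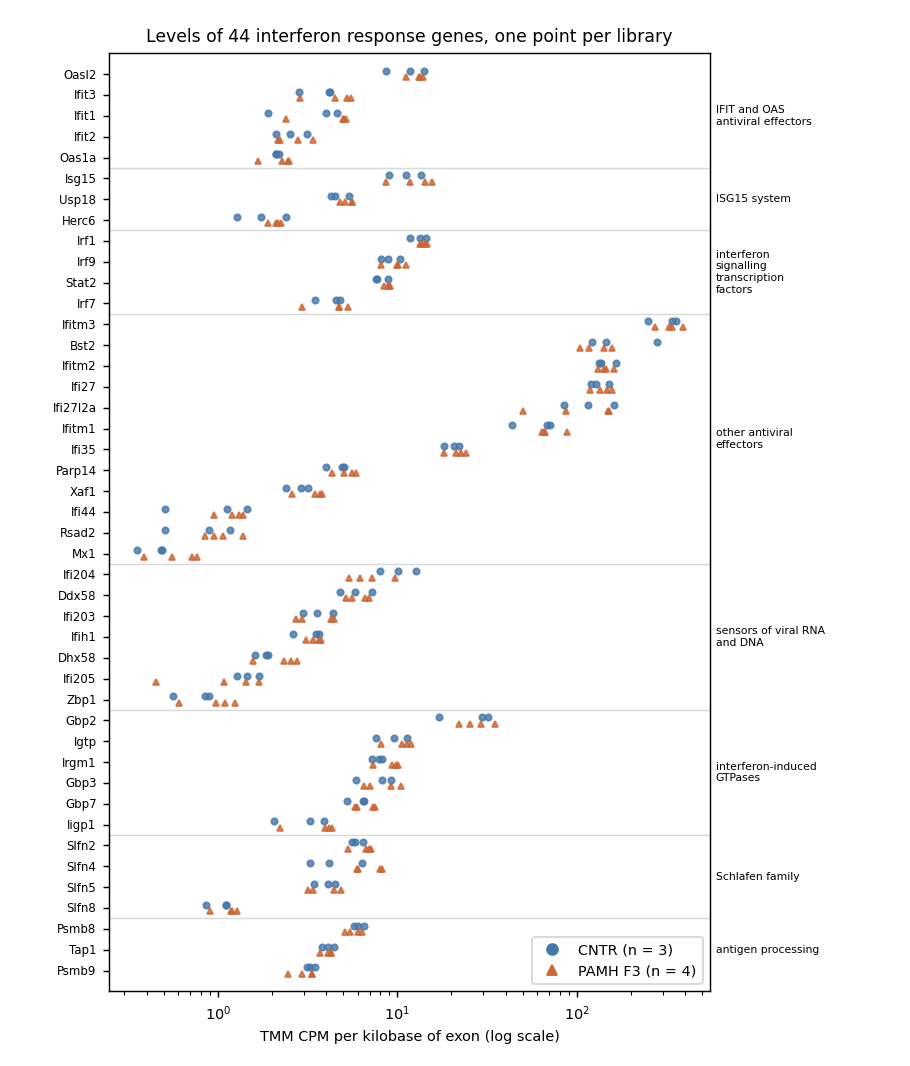
Level of each of the 44 members in TMM CPM per kilobase of exon on a log axis, grouped by role, with circles for the 3 CNTR libraries and triangles for the 4 PAMH F3 libraries. The IFITM genes, Bst2, Ifi27 and Ifi27l2a lie well above the other members, and the points of both groups are interleaved in every row.

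The question of the design was whether the ovaries of PAMH F3 mice differ from CNTR in these genes. No member passed the adjusted threshold of 0.05 in edgeR's quasi-likelihood test with 2 surrogate variables (0 of 44, beside 0% of the 18779 genes tested), and the smallest adjusted p of a member was 0.365. At an unadjusted p under 0.05, Slfn4 and Ifitm1 were higher in PAMH F3 (2 of 44, beside 3.75% of all genes) and Ifi204 and Bst2 were lower (2 of 44, beside 3.89%). DESeq2 with the same surrogate variables called 2 members at its adjusted threshold, Slfn4 as higher and Ifi204 as lower, beside 0.511% of all genes. Without surrogate variables, edgeR gave 1 higher member (beside 1.11%) and 1 lower member (beside 2.84%) at an unadjusted p under 0.05, and with 3 surrogate variables it gave 6 higher members (beside 4.08%). No member had groups that did not overlap (0 of 44, beside 4.25% of all genes). Of the 44 log2 fold changes, 33 were above 0, which is 75% beside 51.7% of all genes. Their median was 0.09, beside 0.0049 over all genes, and the SD of the members' median between libraries of a group was 0.19. In the fit with 2 surrogate variables, the p values measure the spread between mice that these variables left, with 3 residual degrees of freedom. The variables were themselves estimated from the same 7 libraries.

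**Figure D2:**
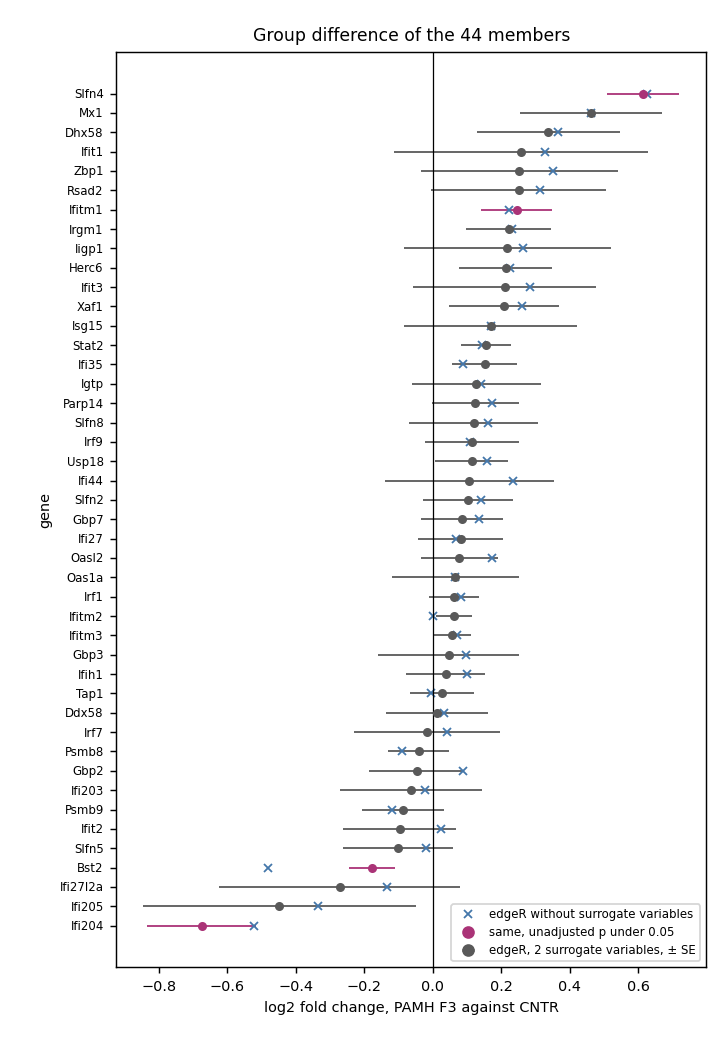
Log2 fold change of each member, PAMH F3 against CNTR, from edgeR with 2 surrogate variables (points with ± SE, in purple where the unadjusted p was under 0.05) and without surrogate variables (crosses). Most points lie between -0.2 and 0.4, with Slfn4 highest and Ifi204 lowest, and Bst2 moves from -0.18 to -0.48 without surrogate variables.

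Slfn4, a Schlafen family gene of myeloid cells that type I interferon induces, had the largest positive value. Its level was 16.45, 13.0 and 25.0 CPM in the CNTR libraries and 31.8, 23.6, 24.0 and 32.6 CPM in the PAMH F3 libraries. CNTR replicate 3 lay above 2 of the PAMH F3 libraries, so the groups overlapped. The log2 fold change was 0.61 (SE 0.11, edgeR adjusted p = 0.365), the DESeq2 adjusted p was 0.00215, and an exact permutation test of the means over the 35 divisions of the libraries gave a two-sided p of 0.114, where 0.0286 is the smallest possible. The study had listed Slfn4 among its upregulated genes, from the same libraries with DESeq2 and sva. The DESeq2 call given here is thus not independent of that result. Of the 50-base stretches of Slfn4 transcripts, 10.8% also occur in another gene, mostly Slfn3. The other Schlafen genes, which restrain proliferation and virus replication in several cell types, showed smaller differences. Slfn2, the highest of the family per kilobase, was at 10.7, 9.24 and 9.62 CPM in CNTR and at 11.8, 11.2, 11.6 and 8.81 CPM in PAMH F3 (log2 fold change 0.10, SE 0.13). The family lies within chr11:82951349-83190216 (GRCm38), and across the 7 libraries Slfn4 correlated with Slfn2, Slfn5 and Slfn8 at r of 0.18, 0.09 and 0.34, whereas the highest r of a pair in the family was 0.87.

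Among the sensors of viral RNA and DNA, the DNA-binding protein gene Ifi204 had the lowest fold change of all members. Its level was 45.2, 28.3 and 35.8 CPM in CNTR and 34.3, 25.7, 19.2 and 22.1 CPM in PAMH F3. A single PAMH F3 library, replicate 1, lay above the lowest CNTR library. PAMH F3 differed from CNTR by a log2 fold change of -0.68 (SE 0.16, edgeR adjusted p = 0.511), with a DESeq2 adjusted p of 0.0304 and an exact permutation p of 0.114. Without CNTR replicate 1 it was -0.33, with an unadjusted p of 0.180 in edgeR. Ifi204 shares 20.02% of its 50-base stretches, mostly with Ifi211, so its counts of unique reads cover only part of the gene. The summed level of 8 macrophage and monocyte markers, all detected, was between 507 and 544 CPM in CNTR and between 353 and 618 CPM in PAMH F3. The part of macrophages in the values of Ifi204 was not tested, and in whole ovaries fewer cells of a type and less RNA per cell cannot be told apart.

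The other 6 sensors did not pass the unadjusted threshold. Ifi205, a relative of Ifi204 from the same cluster (chr1:173747293-174031810), spanned 5.31 to 7.08 CPM in CNTR and 1.88 to 7.08 CPM in PAMH F3 (log2 fold change -0.45, SE 0.40). Ifi203, the third gene of this cluster, was at -0.06 (SE 0.21). Values for the RNA helicases that recognise viral RNA were 0.34 (SE 0.21) for Dhx58, 0.04 (SE 0.11) for Ifih1 and 0.01 (SE 0.15) for Ddx58. Zbp1, a sensor of left-handed nucleic acid, was at 0.25 (SE 0.29). Pairs within the Ifi203, Ifi204 and Ifi205 cluster correlated across the libraries with r from 0.61 to 0.66.

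Bst2, or tetherin, holds budding virus at the cell surface and is abundant in plasmacytoid dendritic cells. It was measured at 109, 251 and 131 CPM in CNTR and at 106, 127, 142 and 94.0 CPM in PAMH F3. The value of CNTR replicate 2 was far above all other libraries, which overlapped between groups. The log2 fold change was -0.18 with 2 surrogate variables (SE 0.07, edgeR adjusted p = 0.629) and -0.48 without them. Without CNTR replicate 1 it was -0.63 with an edgeR adjusted p of 0.0349, and without CNTR replicate 2 it was -0.03. Without PAMH F3 replicate 2 or 4 it was -0.12 in each fit, with unadjusted p of 0.177 and 0.174 in edgeR. The GC content of its longest transcript was 55.3%, exceeded by that of 2 members. Summed levels of the 6 dendritic cell markers were 482 to 586 CPM in CNTR and 355 to 449 CPM in PAMH F3, and without Bst2 the sums of the other 5 overlapped, at 335 to 383 and 261 to 344 CPM. Siglech, which marks plasmacytoid dendritic cells, lay between 0.765 and 1.48 CPM in all libraries. The part of these cells and of GC content in the value of Bst2 was not tested.

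The IFITM genes, which stop viruses at the membrane, lie side by side at chr7:140954837-141010770. Ifitm1 was at 74.8, 77.1 and 47.4 CPM in CNTR and at 69.8, 71.4, 96.2 and 72.7 CPM in PAMH F3. CNTR replicate 3 was the lowest and PAMH F3 replicate 3 the highest, with the other 5 libraries close together. This gave a log2 fold change of 0.24 (SE 0.10, edgeR adjusted p = 0.651), and the exact permutation p was 0.543. In edgeR it was 0.11 without CNTR replicate 3, 0.17 without PAMH F3 replicate 3 and 0.15 without PAMH F3 replicate 4, with unadjusted p of 0.409, 0.163 and 0.163. Ifitm3 was at 243, 231 and 168 CPM in CNTR and at 221, 229, 263 and 185 CPM in PAMH F3 (log2 fold change 0.06, SE 0.05). Ifitm1 and Ifitm3 followed each other across the libraries with r of 0.86. Ifitm2, of which 48.5% of the 50-base stretches occur in another gene, averaged 94.6 CPM in each group (SD 11.3 in CNTR, n = 3, and 8.02 in PAMH F3, n = 4).

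Among the other antiviral effectors, Mx1 was at 1.84, 1.83 and 1.33 CPM in CNTR and at 2.10, 2.71, 2.90 and 1.47 CPM in PAMH F3. Of the PAMH F3 libraries, replicates 1 to 3 lay above every CNTR library and replicate 4 within their range. Its log2 fold change of 0.46 (SE 0.21, edgeR adjusted p = 0.670) was the next highest after Slfn4. Ifi27, which encodes a small mitochondrial protein, was at 188, 175 and 221 CPM in CNTR and at 197, 230, 216 and 174 CPM in PAMH F3. The ranges of Ifi27 nearly coincided, and its log2 fold change was 0.08 (SE 0.12). Its neighbour Ifi27l2a varied more, from 39.1 to 74.0 CPM in CNTR and from 23.3 to 69.8 CPM in PAMH F3 (log2 fold change -0.27, SE 0.35). Values were 0.25 (SE 0.25) for Rsad2, or viperin, 0.21 (SE 0.16) for the apoptosis regulator Xaf1, 0.15 (SE 0.09) for Ifi35, 0.12 (SE 0.13) for the ADP-ribosyltransferase gene Parp14 and 0.11 (SE 0.25) for Ifi44.

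The IFIT proteins bind viral RNA, and the OAS proteins sense double-stranded RNA. Ifit1 was at 10.7, 5.07 and 12.2 CPM in CNTR and at 13.5, 13.6, 13.2 and 6.396 CPM in PAMH F3. Each group held 1 library at about the same low level, CNTR replicate 2 and PAMH F3 replicate 4, and apart from replicate 4 the PAMH F3 libraries lay above all CNTR libraries. Its log2 fold change was 0.26 (SE 0.37). Oasl2, the highest of this set per kilobase, was at 89.5, 54.8 and 75.1 CPM in CNTR and at 89.0, 83.6, 85.2 and 71.6 CPM in PAMH F3 (log2 fold change 0.08, SE 0.11). Oas1a was at 3.98, 3.96 and 4.12 CPM in CNTR and at 4.65, 4.31, 4.69 and 3.17 CPM in PAMH F3 (log2 fold change 0.07, SE 0.19). As in Ifit1, only PAMH F3 replicate 4 kept the groups of Oas1a from separating. Ifit3 was at 0.21 (SE 0.27) and Ifit2 at -0.10 (SE 0.17). Oas1a shares 57.6% of its 50-base stretches, mostly with Oas1g, and Ifit3 shares 51.2%, mostly with Ifit3b, so that unique reads cover these genes in part.

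Isg15, a ubiquitin-like protein that is attached to newly made proteins, was at 8.41, 6.75 and 10.2 CPM in CNTR and at 8.87, 11.8, 10.8 and 6.52 CPM in PAMH F3. The lowest library of each group was again CNTR replicate 2 and PAMH F3 replicate 4. Its log2 fold change was 0.17 (SE 0.25). Usp18, which removes Isg15 and dampens receptor signalling, was at 0.11 (SE 0.11), and Herc6, the mouse ligase for Isg15, was at 0.21 (SE 0.14).

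No transcription factor of the pathway passed an unadjusted p under 0.05 in edgeR. Irf7, which interferon itself raises and which amplifies the response, was at 18.1, 13.2 and 17.3 CPM in CNTR and at 17.8, 19.97, 17.7 and 11.1 CPM in PAMH F3. The groups overlapped broadly, and the log2 fold change was -0.02 (SE 0.21), turning to 0.04 without surrogate variables. Stat2 was at 45.4, 45.0 and 52.3 CPM in CNTR and at 54.1, 52.7, 53.2 and 50.2 CPM in PAMH F3. CNTR replicate 3 lay above PAMH F3 replicate 4, and the log2 fold change was 0.16 (SE 0.07, edgeR adjusted p = 0.686, exact permutation p = 0.0857). Irf1, a factor that mainly type II interferon induces and the highest of the 4 per kilobase, was at 53.1, 46.9 and 57.2 CPM in CNTR and at 57.9, 56.4, 54.4 and 53.3 CPM in PAMH F3. The difference was 0.06 log2 units (SE 0.07) for Irf1 and 0.11 (SE 0.14) for Irf9.

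Gbp2, a guanylate-binding protein that coats intracellular pathogens, was at 80.5, 43.1 and 74.2 CPM in CNTR and at 88.2, 73.4, 55.1 and 63.6 CPM in PAMH F3. CNTR replicate 2 was the lowest of all libraries. The log2 fold change was -0.05 (SE 0.14) with surrogate variables and 0.09 without them. The other interferon-induced GTPases were at 0.22 (SE 0.12) for Irgm1, 0.22 (SE 0.30) for Iigp1, 0.13 (SE 0.19) for Igtp, 0.08 (SE 0.12) for Gbp7 and 0.05 (SE 0.21) for Gbp3. The 3 guanylate-binding protein genes lie within chr3:142530342-142638008 and were the most tightly linked of the gene clusters described here, with r from 0.82 to 0.94 across the libraries.

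The genes for antigen processing had similar levels in both groups. Psmb8, a subunit of the immunoproteasome, was at 19.3, 22.1 and 20.4 CPM in CNTR and at 18.4, 21.3, 20.4 and 17.3 CPM in PAMH F3. CNTR replicate 2, low for most members, was the highest library for Psmb8. The log2 fold change was -0.04 (SE 0.09) for Psmb8, -0.09 (SE 0.12) for its partner subunit Psmb9 and 0.03 (SE 0.09) for the peptide transporter subunit Tap1. These genes lie within chr17:34181987-34201454, and Psmb8 and Psmb9 correlated with r of 0.93.

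**Figure D3:**
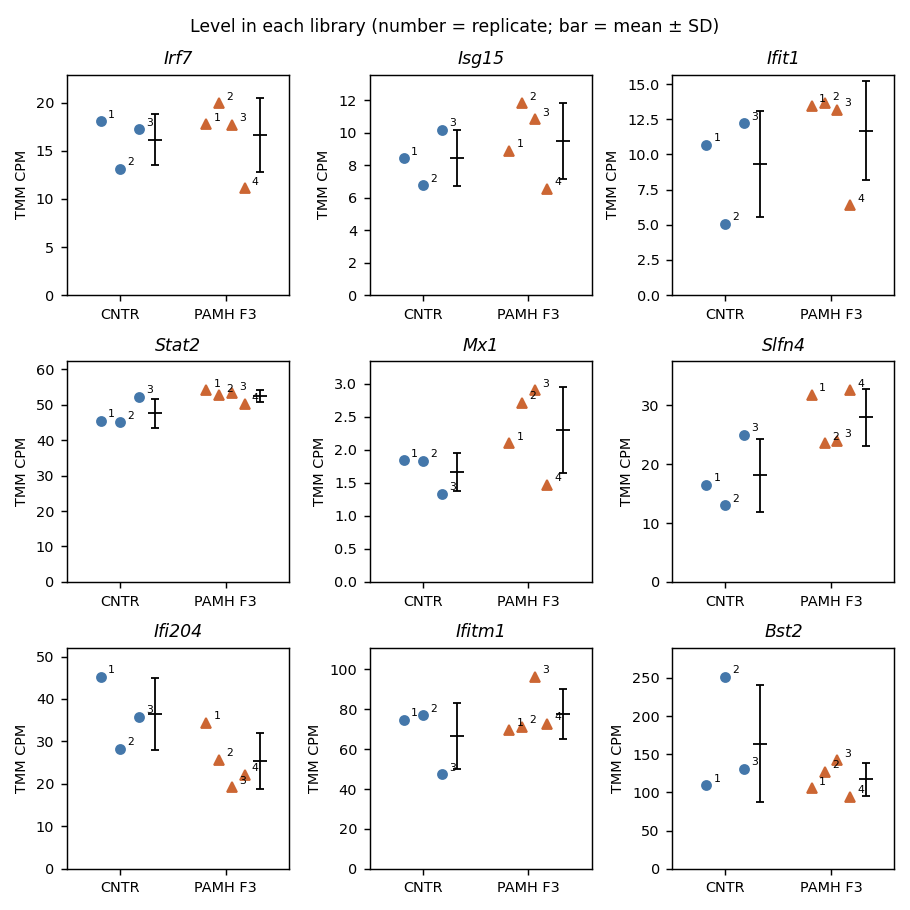
TMM CPM of 9 members in each library, with the replicate number beside each point and the group mean ± SD beside the points, on axes that start at 0. CNTR replicate 2 and PAMH F3 replicate 4 are the lowest libraries of their groups for Irf7, Isg15 and Ifit1, whereas for Bst2 CNTR replicate 2 is the highest of all.

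Most members varied together from mouse to mouse, within as well as across the groups. Over the 946 pairs of members, the median Pearson r across the 7 libraries was 0.521 and 83.5% of pairs were positive, beside a median of -0.002 over all pairs of genes tested. With the group means subtracted, the median r of the members was 0.564. These values describe 7 libraries in which all genes share the depth and preparation of their library, and they carry no p. In 2 libraries, 1 in each group, most members were low. Members had a median deviation from their own mean of -0.28 on the log2 scale in CNTR replicate 2 and of -0.23 in PAMH F3 replicate 4, compared with 0.01 and 0.06 in CNTR replicates 1 and 3 and with 0.17, 0.17 and 0.13 in PAMH F3 replicates 1 to 3. CNTR replicate 2 was the lowest library for 23 members and PAMH F3 replicate 4 for 15, together 38 of 44, whereas over all genes tested they were the lowest for 22.1% and 14.5%. Without these 2 libraries, the median r of the members was 0.219.

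**Figure D4:**
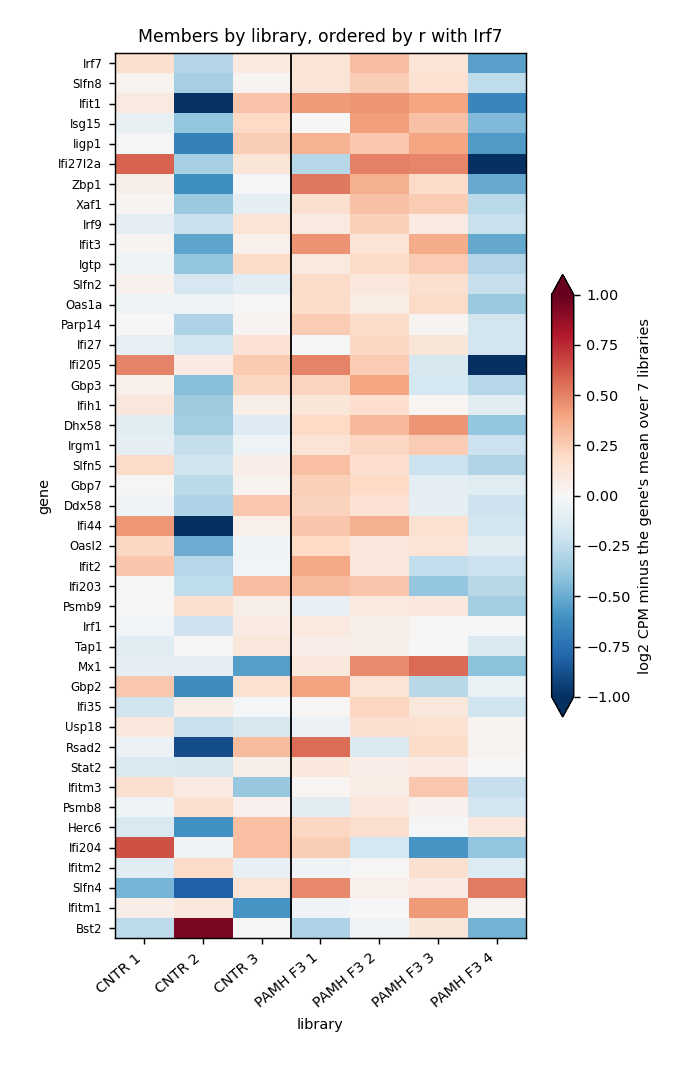
Log2 CPM of each member minus its mean over the 7 libraries, with a row for each gene, a column for each library and members ordered by their r with Irf7. The columns of CNTR replicate 2 and PAMH F3 replicate 4 are blue for most rows, and the last rows, among them Slfn4, Ifitm1 and Bst2, do not follow this pattern.

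In CNTR replicate 2 the deviation from the other CNTR libraries also moved with GC content, with r of 0.56 across the 44 members. Other libraries showed such a relation too. The r was -0.41 and -0.40 in CNTR replicates 1 and 3, and -0.667, -0.03, 0.495 and 0.11 in PAMH F3 replicates 1 to 4. Each library was set against the others of its group, so these values depend on each other. The median GC content was 48.5% for the members and 49.3% for all genes. Ifi44 and Ifit1, at 40.4% and 43.3% GC, were 1.31 and 1.16 log2 units lower in CNTR replicate 2 than in the mean of the other CNTR libraries, whereas Bst2 was 1.07 higher. After the trend with GC content was removed from each library, the median deviation of the members was -0.23 in CNTR replicate 2 and -0.26 in PAMH F3 replicate 4, and the median r over pairs was 0.548. Summed levels of 6 leukocyte markers, all detected, were 114 to 131 CPM in CNTR and 98.1 to 139 CPM in PAMH F3. CNTR replicate 2 had the highest leukocyte sum of its group and PAMH F3 replicate 4 the lowest of all libraries. The part of leukocytes in the shared pattern was not tested.

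**Figure D5:**
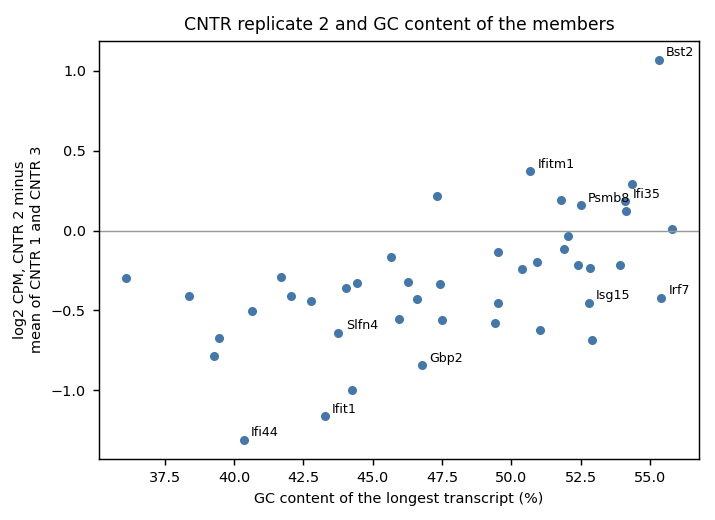
For each member, the log2 CPM of CNTR replicate 2 minus the mean of CNTR replicates 1 and 3, against the GC content of its longest transcript. Points rise to the right (r of 0.56 was measured for the deviation of this library), most lie below 0, and Bst2 stands alone at 1.07.

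Taking Irf7 as the reference, 40 of the other 43 members correlated positively with it across the 7 libraries. The median r was 0.712, beside -0.05 over all genes tested. For 20 of the 43 members the unadjusted exact permutation p over all orders of the libraries was under 0.05, all with positive r, beside 1.63% of all genes. None passed after Benjamini-Hochberg adjustment over all genes, where every exact permutation value was 1. The highest were Slfn8 (r = 0.92, rho = 0.82), Ifit1 (r = 0.89, rho = 0.75) and Isg15 (r = 0.89, rho = 0.68), whose unadjusted exact permutation p of r was 0.0117, 0.0311 and 0.00655. Without PAMH F3 replicate 4 and CNTR replicate 2, the libraries farthest from the median of Irf7, the median r was 0.306 and 33 members were positive. A relation with Irf7 beyond these libraries was thus not shown, and no other pair of libraries was left out for comparison. The members that did not follow Irf7 were Ifitm2 (r = 0.05), Slfn4 (r = -0.01), Ifitm1 (r = -0.07) and Bst2 (r = -0.12), and they include 3 of the 4 members with an unadjusted p under 0.05 between the groups. The median r with Irf7 was 0.769 for the 20 members with an ISRE core in their window and 0.584 for the 14 with a window but no core. Both medians include PAMH F3 replicate 4 and CNTR replicate 2, so no difference between these sets beyond the 2 libraries was shown. Members without a window were outside this split, with r from 0.33 for Ifi204 to 0.88 for Iigp1.

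The group comparison depended on which mouse was left out. Without PAMH F3 replicate 4, 13 of 44 members had every PAMH F3 library above every CNTR library, beside 3.12% of all genes. They were Dhx58, Ifit1, Ifit3, Iigp1, Irgm1, Mx1, Oas1a, Parp14, Slfn2, Slfn8, Stat2, Xaf1 and Zbp1. In this library 39 of 44 members lay below their own mean, so its omission favours such separation. The share over all genes is therefore not a matched reference. Without CNTR replicates 1 and 3 the number was 1 and 4 (beside 6.75% and 6.81%). It was 0 without any other single library (beside 2.85% to 4.66%). In edgeR's fit with its surrogate variables, 14 members were higher at an unadjusted p under 0.05 without PAMH F3 replicate 4 (beside 3.46%). The number was 14 without CNTR replicate 3 (beside 4.16%) and 13 without CNTR replicate 1 (beside 7.09%). Without CNTR replicate 2 the number was 2 (beside 4.19%), and the median log2 fold change of the members was 0.02. Without PAMH F3 replicates 1, 2 and 3 the numbers were 2, 2 and 1 (beside 4.81%, 2.36% and 3.24%). In these fits no member passed the adjusted threshold, except Bst2 without CNTR replicate 1. Without surrogate variables and with the same libraries left out, the higher members were 4 without PAMH F3 replicate 4 (beside 1.02%), 3 without CNTR replicate 3 (beside 2.66%), 1 without CNTR replicate 1 (beside 2.46%) and 0 without CNTR replicate 2 (beside 1.23%).

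Few other genes of the pathway differed between the groups at an unadjusted p under 0.05, and DESeq2 with the same surrogate variables called 0 of them. Interferon ligands were near the limit of detection, since 13 of the 21 genes listed had 0 counts in every library, Ifnb1 had 1 count in all and Ifng had 8. Only Ifne, an interferon of epithelia in the reproductive tract, was tested, at 1.32 ± 0.87 CPM in the 3 CNTR and 1.42 ± 0.74 CPM in the 4 PAMH F3 libraries (mean ± SD, here and for the genes that follow). The receptors and JAK-STAT genes were all expressed, and 0 of 10 passed an unadjusted p under 0.05 in edgeR or an adjusted one. Of 10 negative regulators tested, 0 passed at an unadjusted p under 0.05. Of 14 adaptors and kinases of nucleic acid sensing, the kinase gene Ikbke was higher at an unadjusted p under 0.05 (1 of 14, beside 3.75% of all genes) and 0 were lower. Ikbke was at 37.5 ± 2.66 CPM in PAMH F3 against 32.5 ± 3.29 CPM in CNTR, without overlap between the groups, and its edgeR adjusted p was 0.560. Of 63 further interferon-stimulated genes tested, 0 were higher and 2 were lower at an unadjusted p under 0.05 (beside 3.75% and 3.89% of all genes), with 0 past the adjusted threshold. H2-T23, a nonclassical MHC class I gene, was at 26.3 ± 3.90 CPM in PAMH F3 against 37.7 ± 4.80 CPM in CNTR. B2m, the light chain of MHC class I, was at 342 ± 20.3 CPM against 375 ± 40.5 CPM. Their log2 fold changes were -0.46 and -0.18, with edgeR adjusted p of 0.552 and 0.641. In this list the groups did not overlap for 1 gene that was lower, H2-T23 (1 of 63, beside 2.4% of all genes). They also did not overlap for 1 that was higher, Ifi213, a relative of Ifi204 (1 of 63, beside 1.85%). Ifi213 was at 1.42, 1.08 and 1.49 CPM in CNTR and at 1.93, 1.93, 2.04 and 1.66 CPM in PAMH F3, where edgeR gave 0.47 (SE 0.22, adjusted p = 0.676).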

How the data were processed

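Poly(A) RNA of whole ovaries was sequenced by the authors in stranded libraries on a HiSeq4000, with 1 library per mouse. Per the submitters' processing notes, reads were demultiplexed with bcl2fastq 2.17.1.14, aligned to mm10 with STAR 2.5.3a and counted with HTSeq-count 0.6.1p1. The Ensembl release is not given in the sources used here. The deposited values are raw counts of uniquely aligned reads per gene. Between 37.7% and 40.7% of the reads or alignments listed in a file were not unique and between 5.82% and 7.37% fell outside genes, and these summary lines were left out.

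Of 55487 identifiers, 55394 matched GENCODE M21. The PAMH F3 and CNTR libraries were tested against each other in R 4.3.3 with edgeR 4.0.16 (TMM over all genes, filterByExpr with a minimum count of 10, quasi-likelihood F test without robust fitting) with 2 surrogate variables from svaseq in sva 3.50.0 (num.sv, 20 permutations, seed 1, at most 3), followed by Benjamini-Hochberg adjustment over the 18779 genes tested, with a threshold of 0.05. DESeq2 1.42.0 was an alternative, and the independent hypothesis weighting of the study was not used. SE is the fold change divided by the root of F. Log2 CPM used a prior count of 2. GC content and exon length came from GENCODE M21, and promoters and their starts from RefSeq (GRCm38.p6). The scripts were tested on simulated data. Libraries held 32158174 to 35485021 gene counts, and counting error weighs most on members with few counts, of which the lowest in a library was 43.

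The members, the pathway lists and the marker lists were chosen with earlier results of these data known. Values in every library are given for members with an unadjusted p under 0.05, members whose groups do not overlap, the highest member per kilobase of each role, and Irf7, Stat2, Isg15, Ifit1, Mx1, Oas1a, Bst2, Ifi27, Ifi204 and Psmb8. Genes of the pathway lists were named at an unadjusted p under 0.05, at most 4 a list. Ifne, Ifnb1, Ifng, Ifi213, Siglech, Insl3 and the other values of single members were named in addition. Alternatives changed the surrogate variables, tool, scaling, count filter, prior count, replicate block and libraries. After seeing the data, fits that left out a library without surrogate variables, a removal of the GC trend and the omission of 2 libraries together were added.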

Additional observations from a re-analysis of the deposited data

Results flagged for a closer look

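Values that stand apart in the 4 PAMH F3 libraries were looked for by Dixon's ratio of the gap to the range, at its 95% critical value. The ratio was exceeded for 2 of the 44 members in PAMH F3 (4.55%), beside 4.86% of all genes tested, and chance gives about 1 in 20. Ifitm1 was at 96.2 CPM in PAMH F3 replicate 3, whereas the other PAMH F3 libraries lay between 69.8 and 72.7 CPM. Ifit1 was at 6.396 CPM in PAMH F3 replicate 4, whereas the others lay between 13.2 and 13.6 CPM. The CNTR group, with 3 libraries, was not examined in this way.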

How the results depend on the processing

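The median log2 fold change of the members stayed above 0 under all 23 alternatives run for it, from 0.02 to 0.21. It moved by less than its SD of 0.19, but that SD is larger than the median of 0.09 itself. Even a change of sign could therefore have stayed within it. DESeq2 with the same surrogate variables called 2 members where edgeR called 0, and the other alternatives that kept all libraries called 0. The 2 higher and 2 lower members at an unadjusted p under 0.05 became 1 and 1 without surrogate variables in edgeR (beside 1.11% and 2.84% of all genes) and in DESeq2 (1.03% and 3.05%), 3 and 1 with 1 surrogate variable (2.4% and 3.6%), 6 and 2 with 3 surrogate variables (4.08% and 4.84%), 1 and 2 with at least 10 counts in every library (3.74% and 4%) and 3 and 2 with no filter beyond 1 count (2.94% and 2.82%). When single libraries were left out, the called members ranged from 0 to 1, the higher members from 0 to 14 and the lower members from 0 to 2. Over all genes, with surrogate variables, the higher share ran from 2.36% to 7.09% and the lower share from 1.98% to 9.94%. Without surrogate variables the higher share ran from 0.78% to 2.66%. Members without overlap between groups ranged from 0 to 13. The 13 came without PAMH F3 replicate 4, the library in which most members were low (beside 3.12% of all genes, not a matched reference). The next highest number was 4 without CNTR replicate 3 (beside 6.81%). Members with an exact permutation p under 0.05 against Irf7 ranged from 8 to 18 when single libraries were left out. In these fits the median r over pairs ranged from 0.493 to 0.585, and without CNTR replicate 2 and PAMH F3 replicate 4 together it was 0.219, with 0 members against Irf7. The share of all genes against Irf7 was obtained only with all 7 libraries (1.63%). The counts of members against Irf7 with fewer libraries therefore have no reference. With group means subtracted the median r was 0.564.

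Same-numbered libraries deviated from their group means with r of 0.0957, 0.0965 and -0.248. No reference was computed for these values, so they cannot settle whether the replicate numbers pair the mice. A fit with the replicate number as a block and no surrogate variables called 0 members and gave 5 higher and 1 lower at an unadjusted p under 0.05 (beside 0.756% and 1.62% of all genes). Only the number 1 correlated best with itself. In that block fit the log2 fold change was 0.20 for Irf7 and 0.16 for Gbp2, opposite in sign to -0.02 and -0.05. Irf7 was also positive with 0, 1 and 3 surrogate variables (0.042, 0.035 and 0.024) and in DESeq2 without them (0.044), and Gbp2 with 0 and 1 (0.088 and 0.087) and in DESeq2 without them (0.090). With single libraries left out, values crossed 0 for Irf7 (-0.14 to 0.20), Gbp2 (-0.17 to 0.32), Ifit1 (-0.0070 to 0.69), Oasl2 (-0.032 to 0.39), Ifi27 (-0.0024 to 0.23), Ifitm3 (-0.076 to 0.20) and Psmb8 (-0.14 to 0.0046). Under the 23 alternatives, Slfn4 lay between 0.43 and 0.93 (highest without CNTR replicate 3 and without surrogate variables), Ifi204 between -0.81 and -0.33 (nearest 0 without CNTR replicate 1) and Ifitm1 between 0.03 and 0.36 (lowest without CNTR replicate 3 and without surrogate variables). The cause of these differences was not tested. With 3 and 4 mice, most members' differences were within the spread between mice.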
